A study of Mus musculus with 9 samples.

Results

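Ribosome biogenesis factors are the proteins that transcribe, modify, cut and fold ribosomal RNA in the nucleolus and that assemble it with ribosomal proteins into subunits. A list of 44 such genes, chosen with earlier results of these data known, was taken by name from the expression table. Each name matched 1 of the 54532 genes listed. The data came from RNA sequencing of 9 libraries labelled B.END3. That line is known as mouse brain endothelial cells immortalised with a viral oncogene. The study's introduction calls the cells mouse and its methods call them rat. The 3 control libraries (Ctrl) came from cells labelled untreated. The 3 Ep1 libraries and the 3 Ep2 libraries came from cells given photodynamic intervention (PDT) at light doses of 10 J/cm2 and 20 J/cm2. All treated monolayers had first been incubated with porfimer sodium, a porphyrin that forms reactive oxygen species under red light, at 300 μg/mL for 90 min, and were then exposed to a 635 nm laser at 100 mW/cm2. No library of cells with porfimer sodium alone or light alone was analysed here, and the time between light and lysis is not given in the sources used here. The labels do not say whether the libraries of a group are separate cultures, so every p-value measures only the spread between these libraries.

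Ribosome production begins with the transcription of ribosomal DNA (rDNA) by RNA polymerase I. A large early particle, the small subunit (SSU) processome, leads to the 40S subunit, and the 60S subunit matures on a separate route. Small nucleolar RNA-protein particles (snoRNPs) guide the methylation and pseudouridylation of the rRNA. The genes of this pathway are highly expressed in growing cells and are commonly known as targets of the transcription factor MYC, which binds the E-box CACGTG. The list was divided by these roles into 6 rDNA transcription genes, 7 snoRNP core genes, 10 SSU processome genes, 4 genes of 40S maturation, 12 of 60S assembly, and 5 nucleolar chaperones and growth proteins.

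Values are FPKM, that is sequenced fragments scaled by gene length and by library size, and 16240688 to 19509225 fragments lay on genes in each library. A gene entered the test when 3 or more libraries gave it an FPKM of 1 or above, which left 11727 genes for limma on log2(FPKM + 1), and a gene was called higher or lower at a Benjamini-Hochberg adjusted p-value below 0.05. Of the 44 factors 43 passed that filter. The exception was Wdr74, a 60S assembly factor, which had 0 to 2 fragments in every library and shares its locus with the gene Gm45736 on the same strand, listed at 0. The labelled cell type was checked against 14 endothelial markers, of which 4 (Flt1, Eng, Ocln and Egfl7) reached this level. Emcn and Erg were at 0 in every library, Cldn5 had at most 2 fragments, and Pecam1 had 10 to 25. Most of these markers were thus below the filter and do not bear out the endothelial label. The summed FPKM of the endothelial markers was 12.8 to 13.1 in Ctrl, 12.7 to 14.4 in Ep1 and 15.9 to 16.9 in Ep2. Its largest part was Flt1, with means of 6.90 in Ctrl, 7.25 in Ep1 and 10.9 in Ep2. From Ctrl to Ep2 the mean of Ocln went from 1.33 to 1.48, that of Eng from 1.32 to 1.13 and that of Egfl7 from 2.09 to 1.65. Of 5 epithelial markers 4 reached this level, and their summed FPKM, mostly from Krt8, Krt18 and Krt19, was 1029 to 1081 in Ctrl, 937 to 1041 in Ep1 and 1155 to 1372 in Ep2. Mitochondrial genes held 1.90% to 1.99% of the fragments in Ctrl, 1.997% to 2.08% in Ep1 and 2.04% to 2.49% in Ep2. Both marker sums were higher in every Ep2 library than in the other groups, and the part of these measures in the results for Ep2 was not tested.

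The promoters of the factors are shown because the genes moved together at the higher dose. RefSeq's table for GRCm38.p6 gave 41 promoters for 38 of the 44 genes, each with 250 bases before and 50 bases after the transcription start. The E-box CACGTG, which reads the same on both strands, was in 8 of the 41 promoters (19.5%), against 7.15% of all 32851 promoters of that length and 10.3% of those of tested genes. Its carriers were Mybbp1a, Nop2, Pes1, Pno1, Utp18, Utp20, Utp4 and Wdr43. The following stretches of 60 bases, 5′ to 3′ on the strand of the gene, hold the E-box in capitals for the carriers in which it lies before or close to the start.
Nop2, chr6:125131796-125131855, plus strand: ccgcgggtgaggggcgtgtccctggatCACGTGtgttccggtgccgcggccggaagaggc
Utp4, chr8:106893610-106893669, plus strand: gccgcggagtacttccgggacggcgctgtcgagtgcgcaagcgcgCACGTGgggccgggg
Pes1, chr11:3963945-3964004, plus strand: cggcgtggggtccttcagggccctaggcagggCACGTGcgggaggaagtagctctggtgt
Utp18, chr11:93885754-93885813, minus strand: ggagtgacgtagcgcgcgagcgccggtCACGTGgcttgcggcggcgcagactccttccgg
Wdr43, chr17:71616185-71616244, plus strand: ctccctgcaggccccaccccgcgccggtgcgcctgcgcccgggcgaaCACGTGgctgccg

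A second motif, CCGGAAG or its reverse complement CTTCCGG, the core of sites for ETS factors, was in 11 of the 41 promoters (26.8%), against 8.86% of all promoters and 19.0% of those of tested genes. Nop2, Utp4 and Utp18 carried both motifs, at places that do not overlap. The stretches below show this motif in capitals for Nhp2, the snoRNP gene with the largest fall described below, and for a gene each of snoRNP function, rDNA transcription and the SSU processome.
Nhp2, chr11:51619724-51619783, plus strand: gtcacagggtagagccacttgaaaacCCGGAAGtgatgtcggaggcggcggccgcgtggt
Gar1, chr3:129831406-129831465, minus strand: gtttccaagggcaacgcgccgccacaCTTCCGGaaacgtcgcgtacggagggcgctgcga
Nolc1, chr19:46075807-46075866, plus strand: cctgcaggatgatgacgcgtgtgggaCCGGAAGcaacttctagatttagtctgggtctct
Heatr1, chr13:12395333-12395392, plus strand: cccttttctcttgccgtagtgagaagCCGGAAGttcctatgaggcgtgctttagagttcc

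The letters TATAAA were in 2 of the 41 promoters (Dkc1 and Pes1, 4.88%), against 13.6% of all promoters and 6.90% of those of tested genes, and they lay at -189 in Dkc1 and at -216 in Pes1, counted from the start. These matches describe the letters of the windows and not sites in use.

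At 20 J/cm2 the factors were lower as a group. Of the 43 tested, 35 fell and 0 rose against Ctrl, and 42 had a negative log2 fold change. The count of factors that rose was also 0 at an unadjusted p below 0.05 in limma and with voom on recovered fragments. Among all 11727 tested genes, 29.3% were called lower and 23.9% higher in this comparison, and with median centring of the libraries 25.3% and 28.2%, when 32 factors were lower and 0 higher. The median log2 fold change of the factors was -0.39, against -0.03 over all tested genes. Their summed FPKM was 3081 to 3153 in the Ctrl libraries, 3077 to 3297 in the Ep1 libraries and 2190 to 2393 in the Ep2 libraries, so that Ep2 lay apart from both other groups. In bulk libraries, fewer cells of a type and less of these transcripts per cell cannot be told apart, and FPKM give shares of the sequenced RNA rather than amounts per cell.

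**Figure D1:**
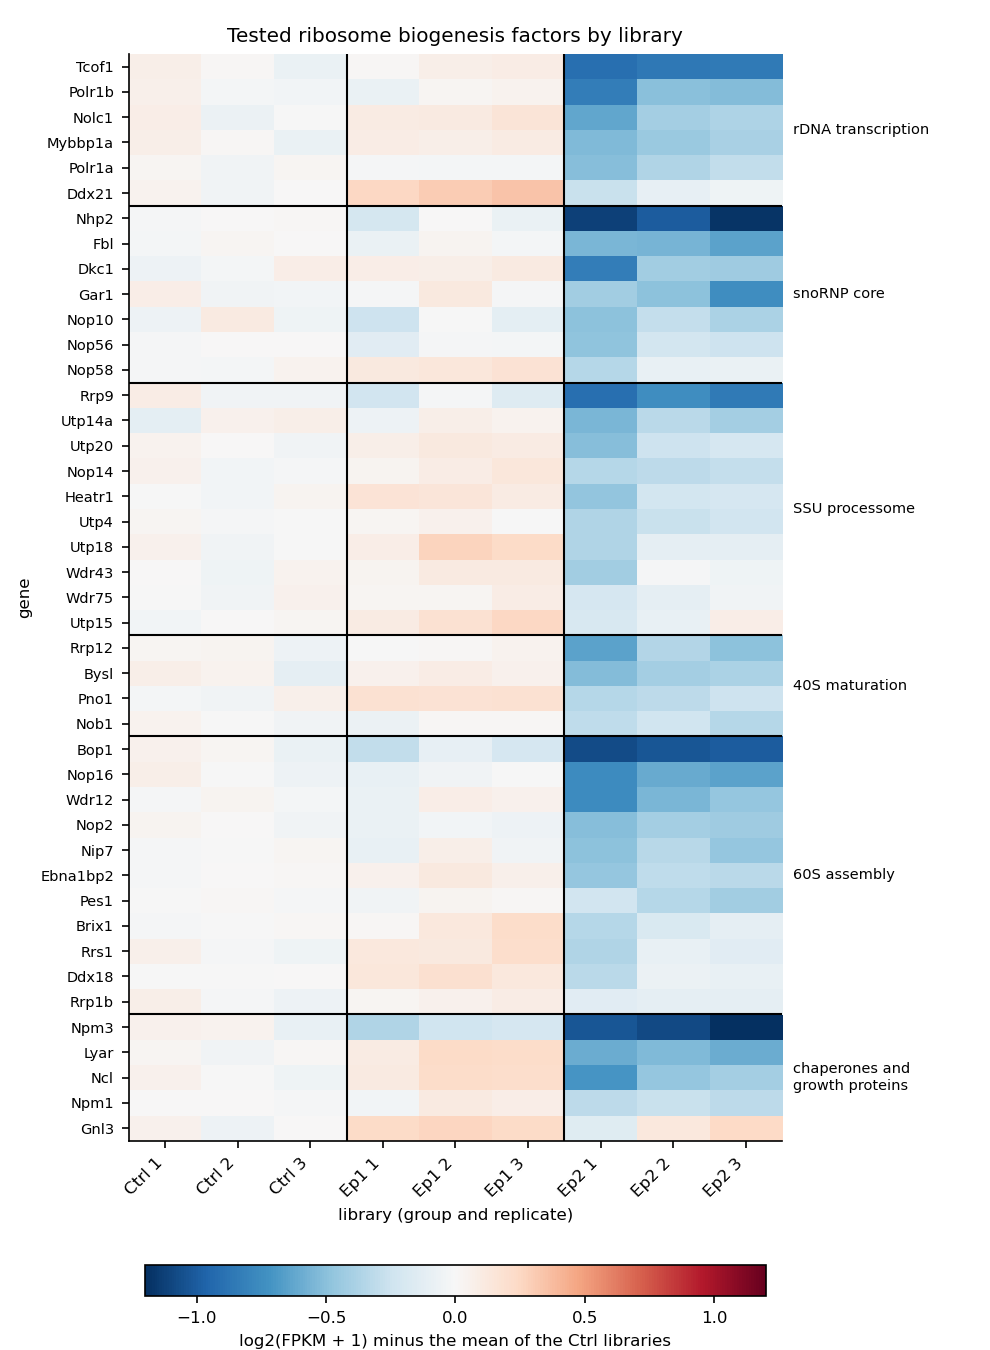
Log2(FPKM + 1) of the 43 tested factors (rows, by role) in each of the 9 libraries (columns), as the difference from the mean of the 3 Ctrl libraries, with blue for lower and red for higher. The Ep2 columns are blue for nearly every gene, darkest for Npm3, Nhp2 and Bop1, while Gnl3 in the last row is pale red in 2 of them.

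The fall was present in each Ep2 library. The median difference of the 43 factors from the Ctrl mean was -0.49 in Ep2 replicate 1, -0.33 in replicate 2 and -0.37 in replicate 3, on the log2 scale, and it was 0.02, 0.07 and 0.08 in the Ep1 libraries. For 35 of the 43 factors Ep2 replicate 1 was the lowest of the 9 libraries, and for the other 8 it was Ep2 replicate 3. All Ep2 libraries lay below all Ctrl libraries for 40 factors, whereas 32.7% of all tested genes showed that order. Without Ep2 replicate 1, 32 factors were called lower and 1, Gnl3, higher, beside 30.1% and 24.8% of all tested genes.

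Among the genes of rDNA transcription 5 of 6 fell, with a median log2 fold change of -0.46. Tcof1 encodes treacle, a nucleolar scaffold that holds RNA polymerase I and its factors at the rDNA. It had 35.9, 34.3 and 32.1 FPKM in the Ctrl libraries, 34.3, 35.8 and 36.3 in Ep1, and 17.8, 18.3 and 18.5 in Ep2. The Ep2 libraries were well below the other 6, among which Ctrl and Ep1 overlapped. The log2 fold change in Ep2 was -0.87 ± 0.05 (SE, adjusted p = 3.16e-06).

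The catalytic core of RNA polymerase I followed. Polr1b, its second largest subunit, fell from 26.9 ± 0.980 FPKM (SD, n = 3) to 17.2 ± 2.23 (log2 fold change -0.62), and Polr1a, the largest, from 16.8 ± 0.417 to 12.6 ± 1.02 (-0.39). Nolc1, a chaperone of snoRNPs that also binds polymerase I, had a log2 fold change of -0.46. Mybbp1a, a nucleolar repressor of rDNA transcription and the most abundant gene of the group, had 197, 189 and 178 FPKM in Ctrl, 200.05, 197 and 201 in Ep1, and 130.01, 138 and 143 in Ep2. Its Ep2 values were below all others (log2 fold change -0.45 ± 0.05, adjusted p = 6.74e-05).

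Ddx21, an RNA helicase that couples polymerase I transcription to rRNA processing, was the gene of this role that was not called. Its FPKM were 94.0, 89.0 and 91.5 in Ctrl, 108.6, 113 and 116 in Ep1, and 75.8, 85.3 and 87.996 in Ep2. The 3 groups did not overlap, with Ep1 highest and Ep2 lowest. The log2 fold change in Ep2 was -0.14 ± 0.06 with an adjusted p of 0.0618, and adjusted p-values of 0.0233 to 0.185 were obtained over the 18 alternative analyses.

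Of the snoRNP core genes 6 of 7 fell (median -0.55). Those of the pseudouridylation particles are Dkc1, the pseudouridine synthase, with its partners Nhp2, Gar1 and Nop10. Nhp2 had 241, 245 and 246 FPKM in Ctrl, 210.3, 245 and 231 in Ep1, and 112, 122 and 108 in Ep2. The Ep2 values were separate from the others, and the Ep1 values overlapped Ctrl. With -1.10 ± 0.06 (adjusted p = 3.4e-06) Nhp2 had the second largest fall of the 43 factors.

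The partners of Nhp2 had smaller fold changes, and the differences between them were not tested. The log2 fold change was -0.56 for Dkc1, -0.55 for Gar1 and -0.39 for Nop10, with adjusted p-values of 0.00141, 0.000425 and 0.00234. In the methylation particles Fbl, the methyltransferase fibrillarin, fell from 55.7 ± 0.745 to 36.8 ± 1.24 FPKM (-0.58), and Nop56 from 123 ± 0.775 to 98.5 ± 9.58 (-0.32). Nop58, the other core protein of these particles, was not called (-0.17, adjusted p = 0.0579), although its Ep2 libraries were all below Ctrl.

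**Figure D2:**
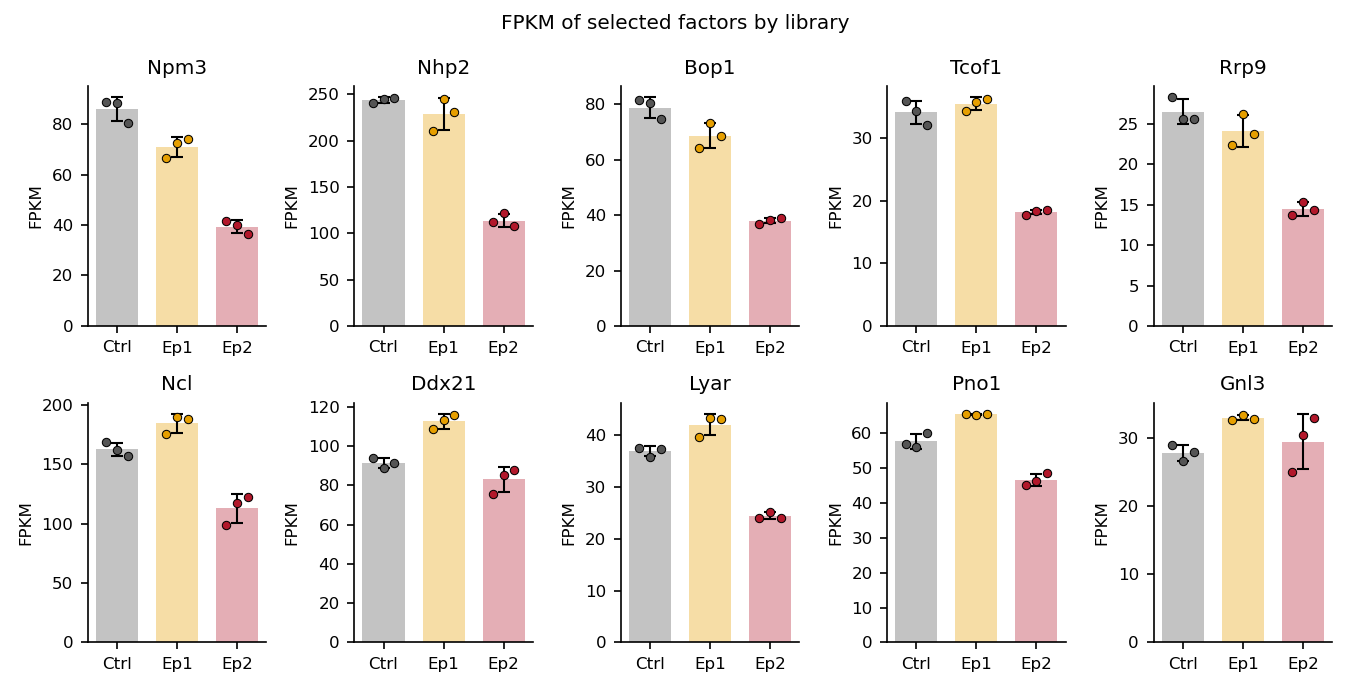
FPKM of 10 factors in the 9 libraries, with points for libraries, bars for the group mean and error bars for the SD (n = 3), each panel on its own axis from 0. Npm3, Nhp2, Bop1, Tcof1 and Rrp9 have their lowest values in Ep2, Ddx21, Lyar and Pno1 have their highest in Ep1, and the Ep2 values of Gnl3 spread over both other groups.

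The SSU processome had the smallest share of calls, with 6 of 10 genes lower (median -0.29). Rrp9, a protein of the U3 snoRNP, had the largest fold change of this role. It had 28.3, 25.6 and 25.6 FPKM in Ctrl, 22.4, 26.3 and 23.7 in Ep1, and 13.7, 15.4 and 14.3 in Ep2. Ctrl and Ep1 overlapped and Ep2 lay below both (log2 fold change -0.83 ± 0.07, adjusted p = 1.68e-05). Utp14a, Utp20, Nop14, Heatr1 and Utp4, further components of the particle, had log2 fold changes from -0.43 (Utp14a) to -0.28 (Utp4).

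Wdr43, the most abundant gene of the processome, had 92.9, 89.7 and 95.8 FPKM in Ctrl, 94.8, 100.1 and 99.97 in Ep1, and 69.4, 91.7 and 89.7 in Ep2. Replicate 1 of Ep2 was below the other 8 libraries, and the groups overlapped (-0.16 ± 0.09, adjusted p = 0.178). Utp18 (-0.19), Wdr75 (-0.12) and Utp15 (-0.07) were not called either, with adjusted p-values of 0.0562, 0.0718 and 0.456. Utp15, Wdr43 and Wdr75 belong, with Utp4 and Heatr1, to the subcomplex that loads first onto the new transcript.

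All 4 genes of 40S maturation fell (median -0.37). Bysl, the bystin protein of the late pre-40S particle, had 28.2, 27.8 and 24.8 FPKM in Ctrl, 28.0, 28.7 and 28.0 in Ep1, and 18.4, 20.03 and 20.5 in Ep2. The Ep2 libraries were below all others (-0.44 ± 0.06, adjusted p = 0.000214). Rrp12, an export factor, had -0.50, and Nob1, the nuclease that makes the final cut of 18S rRNA, had -0.30. Pno1, the partner of Nob1, fell to a like degree (-0.30 ± 0.04, adjusted p = 0.000278) and is described with the lower dose below.

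Of the 11 tested genes of 60S assembly 10 fell (median -0.36). Bop1, Pes1 and Wdr12 form the PeBoW complex, which processes the precursor of 28S and 5.8S rRNA, and each of its 3 subunits fell. Bop1 had 81.5, 80.3 and 74.7 FPKM in Ctrl, 64.1, 73.3 and 68.6 in Ep1, and 37.0, 38.1 and 38.999 in Ep2, and the 3 groups did not overlap. Its log2 fold change in Ep2 was -1.03 ± 0.06 (adjusted p = 2.85e-06).

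Pes1 had 89.5, 90.8 and 89.1 FPKM in Ctrl, 87.2, 92.1 and 90.4 in Ep1, and 76.7, 70.7 and 67.1 in Ep2, which gave -0.33 ± 0.05 (adjusted p = 0.000495). Wdr12 fell from 7.56 ± 0.189 to 4.71 ± 0.577 FPKM (-0.59). The differences between these 3 fold changes were not tested. Among the others, Nop16 (-0.67), the rRNA methyltransferase Nop2 (-0.45), Nip7 (-0.43) and Ebna1bp2 (-0.36) fell most.

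Brix1 (-0.21), Rrs1 (-0.19) and the helicase Ddx18 (-0.16) passed with adjusted p-values of 0.0254, 0.04 and 0.0491. Of the 18 alternative analyses, 7 did not keep the call of Brix1 and 12 each did not keep those of Rrs1 and Ddx18, with adjusted p-values up to 0.153, 0.866 and 0.345. The other 32 calls were kept under every one. Rrp1b was not called (-0.12, adjusted p = 0.0575).

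The nucleolar chaperones and growth proteins held both the largest fall and the only positive value. Npm3, a chaperone of the nucleophosmin family, had 88.6, 88.5 and 80.4 FPKM in Ctrl, 66.6, 72.4 and 74.2 in Ep1, and 41.7, 39.9 and 36.6 in Ep2. The groups were in the order of the light dose with no overlap. The log2 fold change in Ep2 was -1.11 ± 0.06 (adjusted p = 3.4e-06).

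Npm1, nucleophosmin itself, was the most abundant of all factors. It had 728, 730 and 721 FPKM in Ctrl, 709, 781 and 766 in Ep1, and 584, 604 and 583 in Ep2. The Ep2 libraries were below all others (-0.30 ± 0.04, adjusted p = 0.00032). Ncl, nucleolin, fell from 163 ± 5.79 to 113 ± 12.3 FPKM (-0.53).

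Lyar, a nucleolar growth regulator, had 37.4, 35.8 and 37.3 FPKM in Ctrl, 39.6, 43.3 and 43.0 in Ep1, and 24.01, 25.2 and 24.002 in Ep2. Ep1 lay above Ctrl and Ep2 below it, with a log2 fold change of -0.58 ± 0.05 in Ep2 (adjusted p = 1.46e-05). Gnl3, the nucleolar GTPase nucleostemin, had 28.8, 26.5 and 27.8 FPKM in Ctrl, 32.6, 33.3 and 32.8 in Ep1, and 24.9, 30.4 and 32.9 in Ep2. Its Ep2 libraries spread from below Ctrl to the level of Ep1 (0.07 ± 0.08, adjusted p = 0.499). The value was 0.18 with an adjusted p of 0.0128 without Ep2 replicate 1, and -0.01 with an adjusted p of 0.92 without Ep2 replicate 3, and these were the extremes of the 18 alternatives.

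The study's threshold for DEGs, an absolute log2 fold change above 0.6, was applied here to the limma values on log2(FPKM + 1). That scale understates falls of low genes and the study names no model, so these counts are not comparable with its own. Of the 43 tested factors 7 were past it in Ep2 against Ctrl, and 5.87% of all tested genes were called lower by that rule. These factors were Npm3, Nhp2, Bop1, Tcof1, Rrp9, Nop16 and Polr1b.

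**Figure D3:**
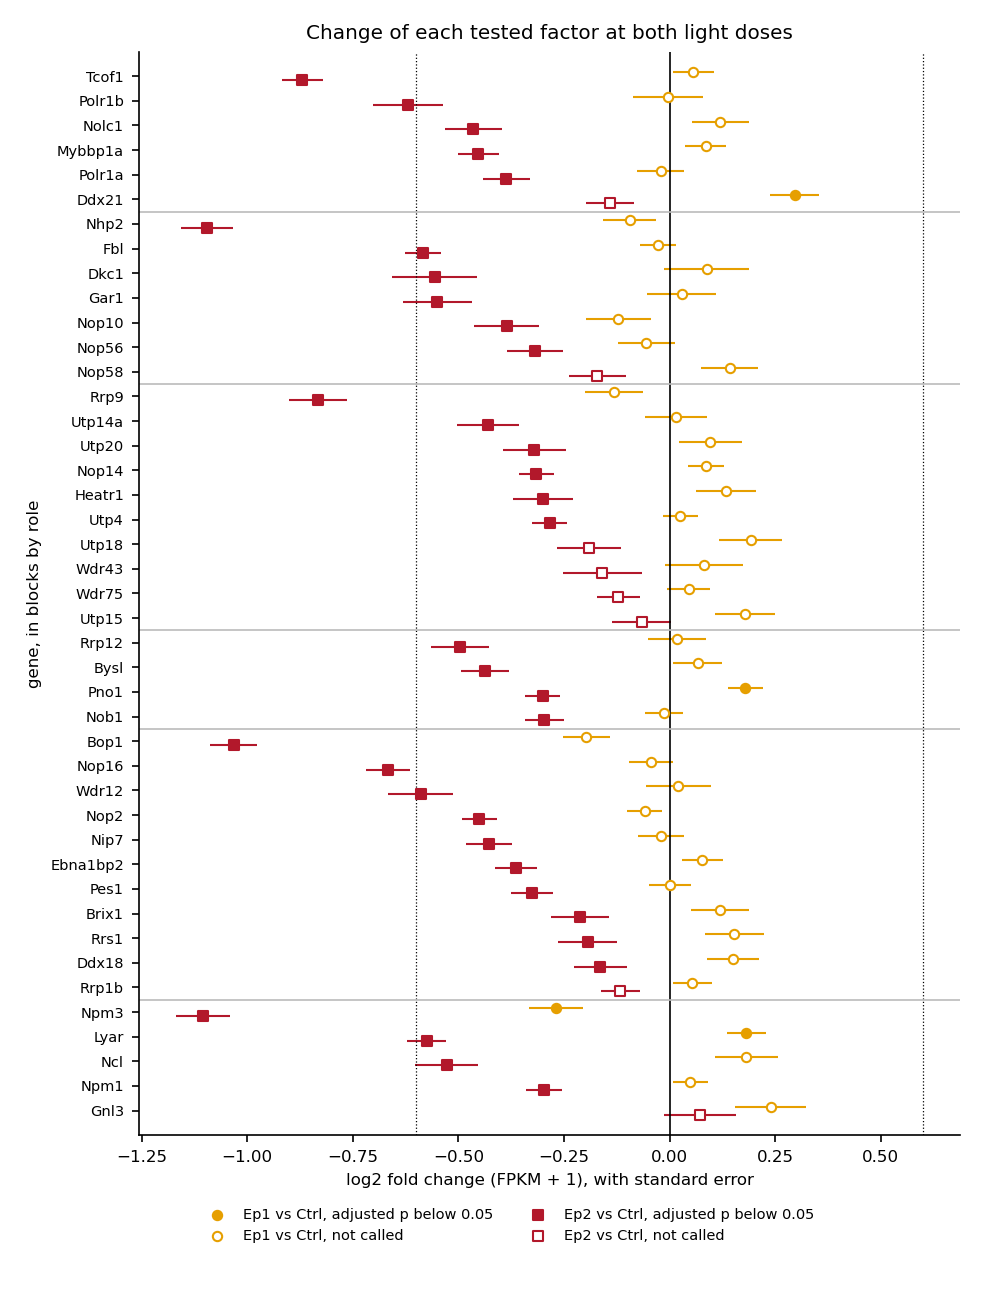
Log2 fold change of each tested factor against Ctrl with its standard error, circles for Ep1 and squares for Ep2, filled where the adjusted p-value was below 0.05, with dotted lines at -0.6 and 0.6. Squares lie left of 0 except for Gnl3, and the circles stay between -0.27 (Npm3) and 0.30 (Ddx21).

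At 10 J/cm2 the factors changed little. Of the 43 tested 3 rose (Ddx21, Pno1 and Lyar) and 1 fell (Npm3), against 6.32% of all tested genes called higher and 4.97% called lower. The median log2 fold change was 0.05, with 30 positive and 13 negative values. All Ep1 libraries lay above all Ctrl libraries for 15 factors (34.9%), an order seen in 20.8% of all tested genes. No change passed an absolute log2 fold change of 0.6.

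Ddx21, given above, had the largest rise (0.30 ± 0.06, adjusted p = 0.0161). Pno1, an RNA-binding factor that holds the pre-40S particle until its last cut, had 56.8, 56.1 and 60.1 FPKM in Ctrl, 65.4, 65.3 and 65.5 in Ep1, and 45.2, 46.3 and 48.5 in Ep2. The groups did not overlap, with Ep1 above and Ep2 below Ctrl, and the log2 fold change in Ep1 was 0.18 ± 0.04 (adjusted p = 0.0287). Lyar rose by a like amount (0.18 ± 0.05, adjusted p = 0.0371).

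Npm3 was lower already at this dose (-0.27 ± 0.06, adjusted p = 0.0308). Bop1, with all Ep1 libraries below Ctrl, missed the threshold (-0.20 ± 0.06, adjusted p = 0.051), as did Rrp9 (-0.13, adjusted p = 0.235), Gnl3 (0.24, adjusted p = 0.0978) and Ncl (0.18, adjusted p = 0.141).

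These calls depended on single libraries and on the genes tested beside them. From 0 to 10 factors were called higher and 0 to 2 lower when 1 library was left out. The count of 10 came without Ep2 replicate 1, where 10.1% of all tested genes were higher, and 11 factors were higher when only Ctrl and Ep1 entered the fit, beside 9.83% of all tested genes. No factor was higher without Ctrl replicate 2 or Ep1 replicate 3, where 0.981% and 0.947% of all tested genes were. With no filter on low values limma gave 0 higher and 0 lower, beside 0.906% and 0.576% of all tested genes.

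The factors also separated the 2 light doses. Of the 43 tested factors 41 were lower in Ep2 than in Ep1 and 0 higher (0 also at an unadjusted p below 0.05 in limma and with voom), where 25.2% of all tested genes were lower and 18.8% higher. All 43 log2 fold changes were negative (median -0.43), and for 42 factors the Ep2 libraries lay below all Ep1 libraries, an order found in 30.3% of all tested genes.

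The largest differences were those of Nhp2 (-1.001 ± 0.06, adjusted p = 7.15e-06), Tcof1 (-0.93), Npm3 (-0.84), Bop1 (-0.83) and Lyar (-0.76). There were 11 factors lower by more than 0.6, against 3.97% of all tested genes. Ddx21 was 113 ± 3.73 FPKM in Ep1 and 83.01 ± 6.42 in Ep2, which gave -0.44 ± 0.06 (adjusted p = 0.00031). Wdr43 (-0.24, adjusted p = 0.0614) and Gnl3 (-0.17, adjusted p = 0.14) were not called.

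**Figure D4:**
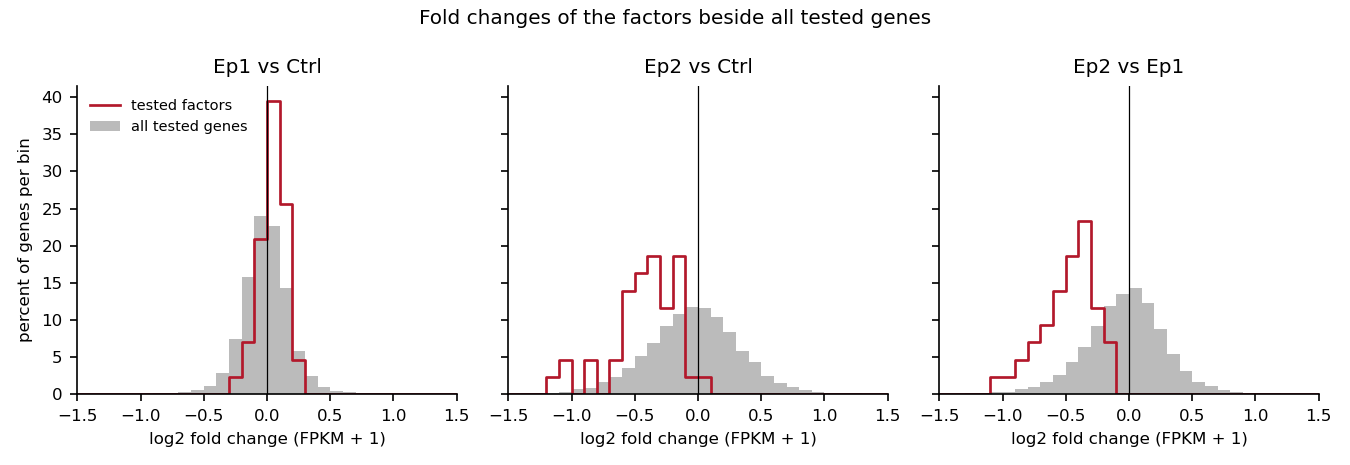
Percent of the 43 tested factors (red line) and of all 11727 tested genes (grey bars) in each bin of log2 fold change, for the 3 comparisons. For Ep1 against Ctrl the red line peaks just right of 0 (median 0.05), and for both comparisons of Ep2 it lies left of the grey bars, around medians of -0.39 and -0.43.

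The fold changes in Ep2 against Ctrl were set beside properties of the genes that the choice of the list did not use. Across the 43 factors Spearman's rho with the GC content of the transcripts was -0.49, against -0.24 across all tested genes with a known GC content, so that factors of higher GC content tended to have the larger falls. It was 0.20 with gene length and -0.13 with FPKM in Ctrl, against 0.14 and -0.21 across all tested genes. These are descriptions across genes of the same libraries, and genes are not independent replicates. With each library corrected for length and GC content, 37 factors were lower in Ep2, beside 26.1% of all tested genes. The median of the factors was then -0.35, against -0.0004 over all tested genes.

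Promoter letters and overlapping genes were set beside the same fold changes. In Ep2 the median log2 fold change was -0.31 for the 8 genes with an E-box, from -0.45 (Mybbp1a) to -0.16 (Wdr43), and -0.39 for the other 29 tested genes with a promoter. For the 10 tested genes with the ETS letters and the 27 without them the medians were -0.40 and -0.33. Nop56, Nop58, Dkc1, Wdr43, Ncl and Gnl3 carry 1 to 5 small nucleolar RNA genes inside their own locus. Of these 6 hosts 3 were lower in Ep2 (Nop56, Dkc1 and Ncl), and of the other 37 tested factors 32 were, a difference that was not tested. Several factors overlap other genes, such as Pno1 and Bop1, and whether the counting used strand is not given in the sources used here, so reads of overlapping genes may be shared.

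Most further genes of the pathway were also called lower at the higher dose. Beyond the 44 factors a list of 145 further genes was drawn up, of which 143 were tested. This list was also chosen with earlier results of these data known, so it is not independent support for the fall of the factors. Of these 95 were lower and 2 higher in Ep2 against Ctrl, beside 29.3% and 23.9% of all tested genes. Their median log2 fold change was -0.27, with 16 positive values. In Ep1 10 of the 143 (6.99%) were higher and 3 (2.10%) lower, near or below the 6.32% and 4.97% of all tested genes. In Ep2 the lower genes were 8 of 18 polymerase I subunits and factors, 31 of 46 further SSU and 40S factors, 30 of 47 further 60S factors, 18 of 22 genes of the exosome and RNase MRP, and 8 of 10 snoRNP assembly factors.

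The lower gene with the smallest adjusted p in Ep2 against Ctrl is given for each of these lists. Wdr46, a core protein of the SSU processome, went from 48.5 ± 2.10 FPKM in Ctrl to 24.0 ± 2.71 in Ep2 (log2 fold change -0.99, adjusted p = 8.58e-06). Cmss1, which the list placed with the further 60S factors, fell from 11.05 ± 0.747 to 4.84 ± 0.0913 FPKM (-1.04, adjusted p = 3.35e-06). Its place in that list was not checked. Exosc4, a ring subunit of the RNA exosome, had -0.90, Ruvbl1, an ATPase that helps to assemble snoRNPs, had -0.86, and Polr2f, a subunit shared by the nuclear RNA polymerases, had -0.65.

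The 2 genes called higher were Riok1 (0.20, adjusted p = 0.0174) and Nsa2 (0.16, adjusted p = 0.0085), a kinase of 40S maturation and a 60S factor. With length and GC corrected they were at 0.10 and 0.09, and neither was called (adjusted p of 0.21 and 0.085, the highest of the 18 alternatives, with 0.00404 and 0.00215 as the lowest).

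**Figure D5:**
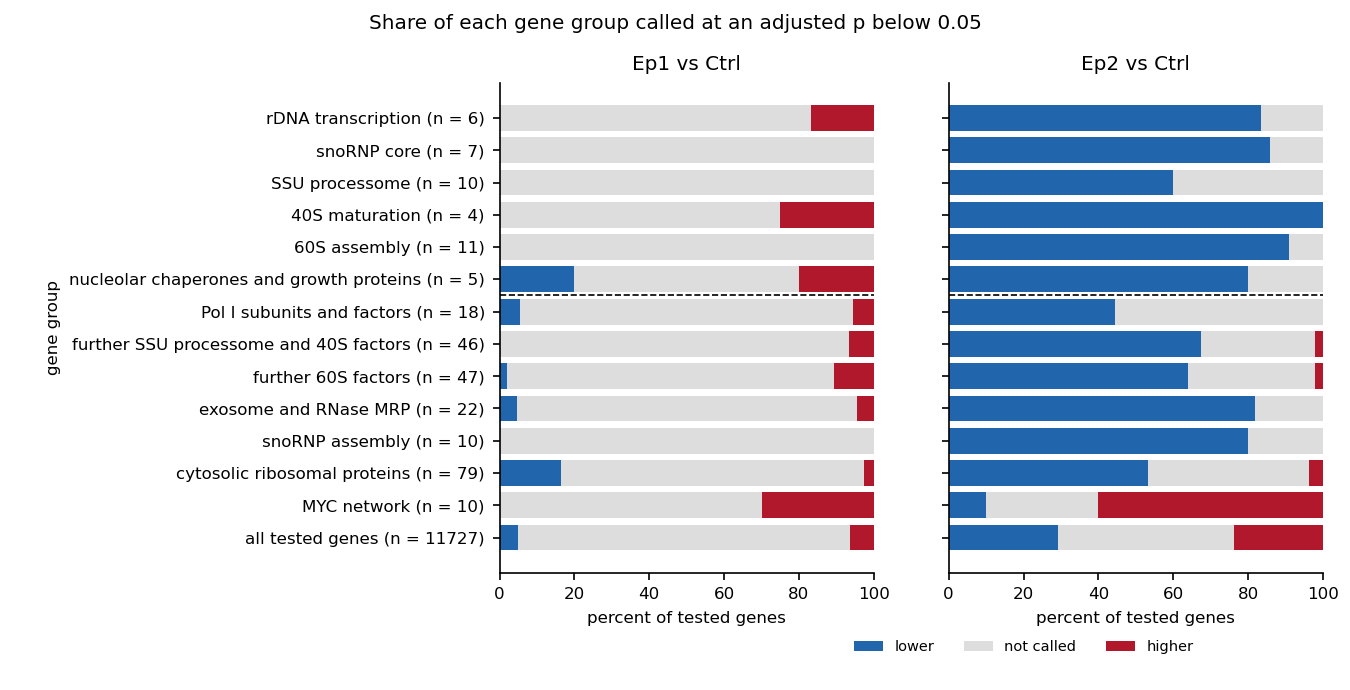
Percent of the tested genes of each group called lower (blue), higher (red) or not called (grey) at an adjusted p-value below 0.05, for Ep1 and Ep2 against Ctrl, with the roles of the 44 factors above the dashed line and further lists and all tested genes below it. In Ep2 every role has 60% or more of its tested genes lower, beside 29.3% of all tested genes. The MYC network has 6 of 10 tested genes higher in Ep2, beside 23.9% of all tested genes.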

How the data were processed

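B.END3 cells were profiled in 9 libraries, 3 each of Ctrl, Ep1 and Ep2, with 150 bp paired-end reads. The authors aligned reads to the mouse genome and deposited 1 FPKM value for each of 54532 genes and library. Per the labels Bowtie 0.12.2 was used with mm8, and the study's methods name GRCm39, but the listed positions overlap GRCm38 for 99.9% of 36418 genes compared and GRCm39 for 12.4%. Positions are given in GRCm38. The counting tool is not given in the sources used here. The 9 single-library tables equal the joint table.

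FPKM multiplied by gene length and divided by a step of each library (51.1 to 60.2) gave whole fragments (100% within 0.05). The main analysis used log2(FPKM + 1) of the 11727 genes that had an FPKM of 1 or above in 3 or more libraries. All libraries entered 1 limma fit without covariates (lmFit, then eBayes with the trend and robust options), and p-values were adjusted by Benjamini-Hochberg separately for the 3 comparisons. Fold changes are on that scale and understate those of low genes. Alternatives were median centring, no filter, FPKM of at least 5, a pseudocount of 0.1, a replicate block, only the groups compared, voom on recovered fragments (14112 genes with at least 10), length correction, the omission of each library, and, added after seeing the data, length and GC correction. The test was checked on simulated data in which far fewer genes changed than were called in Ep2, so that check does not cover the setting of these calls.

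The members, their roles and the further lists were chosen with earlier results of these data known. Factors described library by library are, in each role, the most abundant and the one with the smallest adjusted p in Ep2, the largest changes, and the smallest adjusted p in Ep1; those given otherwise are named for their role, after their values were seen. Comparisons against Ctrl share the Ctrl libraries. A count of 0 allows up to 3 fragments. Promoters came from RefSeq (GRCm38.p6), and motifs were searched on both strands. Software was R 4.3.3, limma 3.58.1, Python 3.11.15, pandas 2.3.3 and matplotlib 3.10.9.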

Additional observations from a re-analysis of the deposited data

How the results depend on the processing

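Calls among the factors were recomputed under 18 alternative analyses and with a minimum fold change. In Ep2 against Ctrl the count of lower factors was 32 to 38 with other scaling, filters, pseudocount, sample sets, voom or corrections for length and GC, and 7 with a minimum log2 fold change of 0.6. In Ep2 against Ep1 it was 38 to 42, and 11 with that minimum. Of all tested genes 11.5% (no filter) to 37.3% (FPKM of at least 5) were lower in Ep2 against Ctrl, and 5.87% with that minimum. In Ep2 against Ep1 these shares were 9.35% to 33.8%, and 3.97%. With 1 library left out the ranges were 32 to 39 and 37 to 43 lower, 0 to 1 higher in Ep2 against Ctrl, and 0 to 10 higher and 0 to 2 lower in Ep1 against Ctrl. Of all tested genes 25.6% to 30.1% were then lower in Ep2 against Ctrl and 20.6% to 25.5% in Ep2 against Ep1. In Ep2 against Ctrl 20.1% to 24.8% were higher. In Ep1 against Ctrl 0.947% to 10.1% were higher and 0.665% to 8.53% lower. The counts in Ep1, 3 higher and 1 lower, were 0 and 0 with the minimum fold change and with no filter on low values. There were 11 higher with only the groups compared, beside 9.83% of all tested genes. With median centring, the stricter filter and voom 2 were lower, beside 5.65%, 7.82% and 5.98% of all tested genes. With the length and GC correction, chosen after seeing the data, 0 were lower, beside 3.04%. The log2 fold change of Gnl3 in Ep2 against Ctrl ran from -0.0107 (adjusted p = 0.92) without Ep2 replicate 3 to 0.1826 (adjusted p = 0.0128) without Ep2 replicate 1. The cause of these changes was not tested.

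Equal replicate numbers did not pair the libraries, with correlations of deviations from -0.056 to 0.074 for equal and -0.108 to 0.153 for unequal numbers. With a replicate block 2 factors were higher and 1 lower in Ep1, 36 lower in Ep2 against Ctrl and 42 lower in Ep2 against Ep1. The median log2 fold change of the factors in Ep2 against Ctrl was -0.34 with median centring and -0.37 with no filter. Over all tested genes median centring turned 2800 higher and 3436 lower in Ep2 against Ctrl into 3311 and 2971, and 2206 higher and 2950 lower in Ep2 against Ep1 into 2974 and 2383. Of the Ep1 calls, the adjusted p reached 0.0763 for Ddx21, 0.12 for Pno1 and Npm3, and 0.145 for Lyar, in the least favourable alternative. Leaving out a library leaves its group with 2. Counting error was not compared with the spread between libraries.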

Other observations

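The MYC network was measured beside the factors, since MYC activates many of them and repressors of its network compete for the same E-box. Of 12 listed genes 10 were tested, and in Ep2 against Ctrl 6 were higher and 1 lower. Among all tested genes 23.9% were called higher and 29.3% lower in this comparison. Myc itself had 3.07, 3.50 and 3.47 FPKM in Ctrl, 4.61, 3.58 and 4.04 in Ep1, and 6.10, 5.84 and 6.05 in Ep2. All Ep2 libraries were above the others, with a log2 fold change of 0.69 ± 0.08 (limma, adjusted p = 8.58e-05). Mxd3, a member of the MAD family that opposes MYC, was the gene that fell. It had 7.93, 7.42 and 6.59 FPKM in Ctrl, 5.35, 6.52 and 6.50 in Ep1, and 2.30, 2.53 and 2.31 in Ep2 (-1.30 ± 0.08, adjusted p = 5.91e-06).

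Other repressors of the network were higher in Ep2. Log2 fold changes were 0.46 for Mxd4, 0.47 for Mxi1, 0.44 for Mxd1, 0.39 for Mga and 0.23 for Mnt, with adjusted p-values from 0.000193 (Mxd4) to 0.0295 (Mnt). The call of Mnt was lost under 7 of 18 alternatives (adjusted p of 0.00232 to 0.0932). Max, the common partner, was at 31.5 ± 1.46 FPKM in Ctrl and 27.5 ± 3.49 in Ep2 (-0.20, adjusted p = 0.0595). In Ep1 Mga, Mnt and Mxd1 were higher than in Ctrl, each with a call that several alternatives did not keep. In that comparison 6.32% of all tested genes were called higher. Mycn and Mycl were below the filter.

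The ribosomal proteins themselves, which the factors assemble with rRNA, were measured for 79 of 83 cytosolic genes. In Ep2 against Ctrl 42 were lower and 3 higher (median log2 fold change -0.22), and in Ep1 13 were lower and 2 higher (median -0.11). Of all tested genes 29.3% were lower and 23.9% higher in Ep2, and 4.97% were lower and 6.32% higher in Ep1. Many of these genes have near-identical processed pseudogenes that can take or lend reads, so their single values are uncertain and are not given.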
